A study of Mus musculus with 2 samples.

Results

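Islands of Brg1 enrichment that lay far from genes were described in mouse medulloblastoma, using a ChIP-seq island list on mm10. An island is a stretch in which the caller found more reads than it expected. An island was counted as intergenic when its midpoint lay outside every RefSeq protein-coding gene, over 10 kb from every protein-coding gene end and over 1 kb from every lncRNA (long noncoding RNA) gene end. Of 5727 islands, 1269 met this rule (22.2%, Wilson 95% interval 21.1 to 23.3). Spontaneous tumours of animals carrying CAG-CreER and Rosa26-SmoM2 gave the chromatin. CAG is a broadly active promoter, CreER is an inducible recombinase, and SmoM2 is an activated Smoothened, the signal transducer of the Hedgehog pathway. The labels state neither the animals' age nor how many tumours were used. The study holds 1 ChIP library, made with the J1 antibody to Brg1 and its paralogue Brm, and 1 input library of the same tumour type and genotype, not analysed here. There was no replicate, so no value below carries an error between animals. Intervals cover counting error only and treat islands as independent, which neighbouring islands are not.

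Brg1 is the ATPase of the BAF (SWI/SNF) complex, which moves nucleosomes at promoters and at enhancers. Enhancers can lie very far from the gene they act on, often in long stretches without coding genes, called gene deserts, that flank developmental transcription factor genes. Nearest genes are given below as positions on the chromosome. The nearest gene need not be the gene a region acts on, and no expression or contact data were used.

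Some intergenic islands lay at microRNA genes. Of 248 microRNA hairpins over 10 kb from a coding gene, 20 (8.06%) had an intergenic island within 10 kb, and these hairpins lay near 11 islands. Several belong to the same cluster or lie on opposite strands of the same site, so they are not separate cases. The same share for other sequence is not given here, so whether 8.06% is high was not tested. At 6 hairpins the island overlapped the hairpin itself. The sequences below are those of the neural microRNA miR-9, of the miR-17 to miR-92 cluster, whose members are known to act with Myc and in Shh-type medulloblastoma, and of the cluster of miR-99a and let-7c. Each is a RefSeq mature sequence (GRCm38.p6, the assembly of mm10) with the seed, the bases that pair with targets, in capitals.
miR-9-5p: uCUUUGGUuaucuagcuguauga
miR-9-3p: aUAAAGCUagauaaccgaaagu
miR-17-5p: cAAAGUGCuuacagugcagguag
miR-20a-5p: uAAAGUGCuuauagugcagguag
miR-18a-5p: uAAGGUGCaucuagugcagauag
miR-19a-3p: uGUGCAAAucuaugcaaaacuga
miR-19b-3p: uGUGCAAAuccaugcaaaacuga
miR-92a-3p: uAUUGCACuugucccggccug
miR-99a-5p: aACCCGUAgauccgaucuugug
let-7c-5p: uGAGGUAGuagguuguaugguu
Only miR-17-5p and miR-20a-5p (seed AAAGUGC), and miR-19a-3p and miR-19b-3p (seed GUGCAAA), shared a seed among those shown. An island of 64 reads (chr3:88214079-88215678, exact Poisson 95% interval 49.3 to 81.7) reached the Mir9-1 hairpin. An island of 74 reads ended 0.093 kb before the Mir17 hairpin (chr14:115040979-115043578, Poisson 95% interval 58.1 to 92.9) and 0.849 kb before Mir92-1. Mir9-2 lay 5.51 kb from an island of 97 reads, and Mir99a and Mirlet7c-1 lay 1.18 and 1.90 kb from one of 197 reads.

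RefSeq promoter windows, from 250 bases before to 50 bases after a start site, lay whole inside 23 of the intergenic islands and belonged to 23 lncRNA genes. These exist because the rule measures from the island's midpoint and from the outer ends of a gene, so a wide island or an internal start can still meet. The windows of 4 of these genes are shown for islands described below, chosen after their values were seen, with each CG dinucleotide in capitals.
Gm3764 (chr3:88214232-88214531, plus strand): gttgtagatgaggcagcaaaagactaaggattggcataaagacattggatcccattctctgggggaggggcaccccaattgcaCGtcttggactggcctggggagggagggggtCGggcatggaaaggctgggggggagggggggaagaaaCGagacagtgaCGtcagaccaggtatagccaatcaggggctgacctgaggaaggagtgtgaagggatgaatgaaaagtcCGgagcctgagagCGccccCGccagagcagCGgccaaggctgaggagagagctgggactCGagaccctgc
C130071C03Rik (chr13:83727856-83728155, plus strand): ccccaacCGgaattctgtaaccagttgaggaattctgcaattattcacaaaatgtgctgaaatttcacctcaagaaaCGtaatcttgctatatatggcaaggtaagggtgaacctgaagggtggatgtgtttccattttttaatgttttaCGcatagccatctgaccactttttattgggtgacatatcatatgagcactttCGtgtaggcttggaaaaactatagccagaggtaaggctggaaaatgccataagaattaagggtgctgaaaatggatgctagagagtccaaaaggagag
Gm17750 (chr13:84064725-84065024, minus strand): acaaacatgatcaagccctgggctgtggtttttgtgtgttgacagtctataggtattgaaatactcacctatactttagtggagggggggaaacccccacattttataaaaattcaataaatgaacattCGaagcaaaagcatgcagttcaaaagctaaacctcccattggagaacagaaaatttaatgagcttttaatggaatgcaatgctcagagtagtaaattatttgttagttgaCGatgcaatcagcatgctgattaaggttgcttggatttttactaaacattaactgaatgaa
Gm35104 (chr12:12765744-12766043, plus strand): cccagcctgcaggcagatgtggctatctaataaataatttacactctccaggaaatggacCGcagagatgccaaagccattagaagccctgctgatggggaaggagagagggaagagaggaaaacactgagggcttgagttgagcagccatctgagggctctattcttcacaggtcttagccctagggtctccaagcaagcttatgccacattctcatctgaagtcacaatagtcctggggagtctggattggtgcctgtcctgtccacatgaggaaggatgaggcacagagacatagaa
Gm3764 starts inside the Mir9-1 island, C130071C03Rik and Gm17750 inside islands between Mef2c and Tmem161b, and Gm35104 inside an island between Cyria and Mycn. They held 9, 4, 2 and 1 CG dinucleotides in that order. The median over 28 distinct windows inside intergenic islands was 4.50, against 7 over 32544 distinct windows in the table. The 28 are all of lncRNA genes and the 32544 are of coding and noncoding genes, so unlike genes are set side by side. The letters CAGATG, an E-box bound by neural bHLH factors, were searched on both strands and occurred in 8 of the 28 windows, those of Gm35104 and C130071C03Rik among them, and in 17.1% of all windows. Another E-box, CAGCTG, occurred in 28.6% of the 28 and in 16.4% of all. Several of the 28 overlap because they belong to neighbouring starts of 1 gene. The Gli site GACCACCCA occurred in none of the 28 and in 0.246% of all.

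Intergenic islands were spread over a wide range of distances, with most within 100 kb of a gene. The median distance from midpoint to the nearest protein-coding gene end was 61.0 kb (interquartile range 28.3 to 158 kb, exact 95% interval of the median 56.1 to 66.5). Over 100 kb away were 469 islands (37.0%, Wilson 95% interval 34.3 to 39.6), over 500 kb away 48 (3.78%), and over 1000 kb away 12 (0.946%). The nearest to the 10 kb limit from outside the rule lay 9.97 kb from Wnt2, 9.94 kb from Cavin4 and 9.91 kb from Ate1, with 69, 73 and 49 reads. The nearest from inside lay 10.03 kb from Fosb and 10.06 kb from Gk2, with 64 and 86 reads.

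Islands thinned out with distance from genes even when the sequence at each distance was counted. Between neighbouring coding genes lay 1295 Mb that met the distances of the rule, and it held 1263 islands, or 0.975 per Mb (Poisson 95% interval 0.922 to 1.03). The remaining 6 islands lay outside the outermost genes of their chromosome. Per Mb of such eligible sequence there were 1.44 islands at 10 to 20 kb from a gene (Poisson 95% interval 1.25 to 1.65) and 1.54 at 20 to 50 kb (1.38 to 1.71). The rate was 1.25 at 50 to 100 kb, 1.07 at 100 to 200 kb, 0.644 at 200 to 500 kb and 0.210 beyond 500 kb (0.154 to 0.278). The intervals of the 3 nearest classes thus lay above the average, and those of the 2 farthest lay below all the others. Unsequenced or repetitive stretches were not removed from the eligible sequence, and their part in this fall was not tested.

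**Figure D1:**
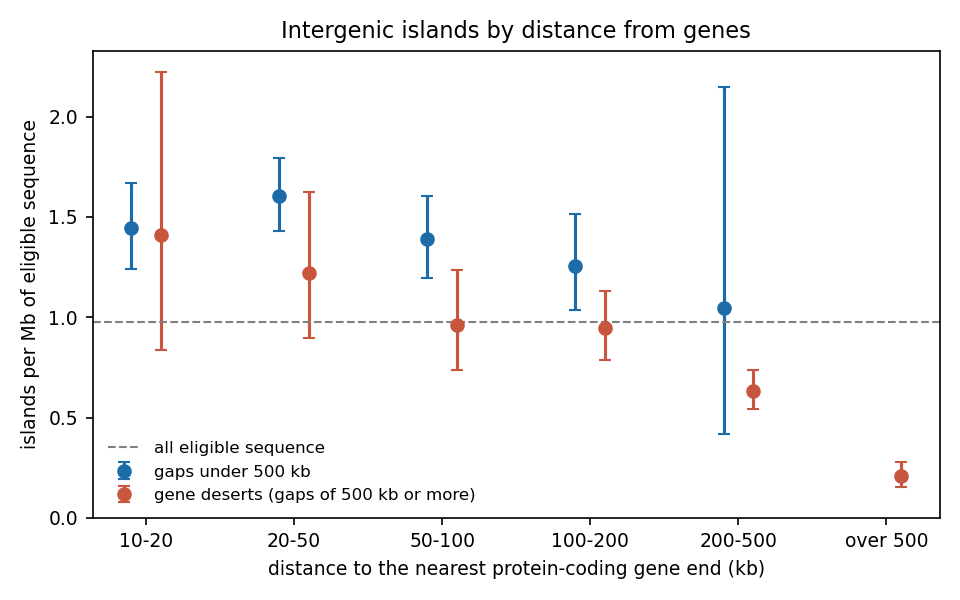
Islands per Mb of eligible sequence (y axis) by distance to the nearest protein-coding gene end in kb (x axis), for gaps under 500 kb (blue) and gene deserts of 500 kb or more (red). Bars are exact Poisson 95% intervals and the dashed line is the rate over all eligible sequence, 0.975 per Mb; the rate falls to 0.210 per Mb beyond 500 kb.

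Gene deserts held fewer islands than their length. A gap was the stretch between neighbouring coding genes, and one of 500 kb or more was counted as a desert. Deserts made up 57.9% of the eligible sequence and held 472 of the 1263 islands (37.4%), at 0.630 per Mb (Poisson 95% interval 0.574 to 0.689) against 1.45 per Mb in shorter gaps (1.35 to 1.55). At 100 to 200 kb from a gene the rates were 0.946 per Mb in deserts (0.785 to 1.129) and 1.26 in shorter gaps (1.03 to 1.51). The rate was lower in deserts in each of the 5 distance classes up to 500 kb, and in each the intervals overlapped. Gaps of 1000 kb or more held 0.383 per Mb. Of 655 deserts, 227 (34.7%) had at least 1 island, against 785 (8.79%) of all 8927 gaps over 20 kb, deserts included. A longer gap has more sequence in which an island can lie, so these shares are not rates per Mb.

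The longest desert, 4.54 Mb between the protocadherin genes Pcdh20 and Pcdh9 on chromosome 14, had none. Other long deserts without an intergenic island lay between Tenm3 and Aga (3.99 Mb), Dsel and Cntnap5a (3.82 Mb) and Pcdh7 and G6pd2 (3.68 Mb). So did those between Igfbp7 and Adgrl3 (3.61 Mb) and the cadherin genes Cdh6 and Cdh9 (3.55 Mb). Yet of 83 deserts of 2000 kb or more, 39 held at least 1 island. The 4.51 Mb between Celf4 and Pik3c3 held 3. The 3.70 Mb between Zeb2, a zinc-finger homeobox gene of neural development, and the activin receptor gene Acvr2a held 4 islands. Their counts were 100, 82, 74 and 83 reads at 109, 534, 1126 and 1465 kb from Zeb2. The desert of 4.42 Mb between Olfm4 and Pcdh17 held 1 island, the farthest of all from a protein-coding gene, at 1644 kb from Olfm4 (70 reads, Poisson 95% interval 54.6 to 88.4). Next came the Zeb2 island at 1465 kb, 1 of 65 reads at 1345 kb from the protocadherin gene Pcdh10, 1 of 46 reads at 1279 kb from Ctnna2, a catenin gene, and 1 of 49 reads at 1229 kb from Adam6a. Of the 12 islands over 1000 kb away, 10 had ordinary read density and 42 to 91 reads. These distances are to genes annotated as protein-coding, and genes of other types were not counted and may lie nearer.

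A few gaps held many islands. Among 785 gaps with an intergenic island, 532 held 1 and 95 held 3 or more, and these 95 accounted for 415 islands (32.7%). The count reached 12 in the 1184 kb between Usp25, a deubiquitinase gene, and Cxadr, which encodes an adhesion molecule. Those 12 ranged from 58 to 278 reads with a median of 129, above the upper quartile of 84 reads of all intergenic islands. In this gap 3 islands lay inside the lncRNA gene Mir99ahg, which carries the name of miR-99a and let-7c, and the island of 278 reads was 10200 bp wide. Between Map3k1, a kinase of the MAP kinase cascade, and Ankrd55 lay 11 islands in 470 kb, with 68 to 302 reads. The island of 302 reads there (chr13:111996393-112003392, Poisson 95% interval 269 to 338) was 182 kb from Map3k1. Also at 10 islands each were the gaps between Npvf and Gm38821 (47 to 105 reads), Zfp608 and Gramd3 (49 to 146 reads), Wnt7b and Ppara, and Cyria and Mycn.

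Mycn, a Myc family factor that drives growth of granule neuron progenitors, was the nearest gene of 8 islands. They lay 32.0, 59.1, 110, 123, 148, 169, 251 and 259 kb from it with 103, 71, 61, 56, 37, 86, 69 and 59 reads. All 8 were downstream of Mycn, which is on the minus strand. Another 2, of 53 and 107 reads, lay further along the same 555 kb gap on the side of Cyria. The closest (chr12:12902395-12905794) and the farthest from Mycn, at 314 kb, had the highest counts, so the counts did not fall steadily with distance.

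Nfib, a nuclear factor I gene needed for granule neuron development, was the nearest gene of 9 islands, 5 on its higher-coordinate side and 4 on the other. On the former they lay 25.2, 31.4, 78.6, 86.3 and 116 kb away with 81, 106, 61, 59 and 65 reads. Another 4 in that gap, of 74 to 152 reads, were nearer to Zdhhc21. The other side, an 847 kb desert shared with Mpdz, held islands of 52, 57, 44 and 73 reads at 190, 197, 301 and 353 kb from Nfib. The same desert held the widest intergenic island of ordinary density, of 15800 bp and 469 reads (chr4:81565897-81581696, Poisson 95% interval 428 to 513), 716 kb from Nfib and 131 kb from Mpdz.

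The stretch from Mef2c to Ccnh on chromosome 13 held 13 intergenic islands on the 2 sides of Tmem161b. Mef2c encodes a MADS-box factor of neuronal differentiation, and was the nearest gene of 6, all downstream. Of these, 4 lay within 28.6 kb, at 53.0, 57.5, 62.0 and 78.8 kb from Mef2c with 69, 68, 110 and 97 reads, around the lncRNA gene C130071C03Rik and Mir9-2. Another 2 lay 200 and 204 kb away with 52 and 176 reads. Further on, the island that holds the Gm17750 start had 447 reads over 14600 bp (chr13:84053196-84067795, Poisson 95% interval 407 to 490). It lay 393 kb from Mef2c and nearer to Tmem161b, at 162 kb. Beyond Tmem161b were islands of 229, 116, 67 and 89 reads, and then another of 14600 bp with 458 reads, 434 kb from Ccnh.

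Zic1 and Zic4 are paired zinc-finger genes of cerebellar granule progenitors, and deserts lie on either side of the pair. Outside Zic4, 8 islands of 70 to 170 reads lay in the 797 kb to Plscr5, 4 of them nearest to Zic4 at 67.0, 198, 202 and 264 kb with 72, 110, 80 and 70 reads. Outside Zic1, 3 islands of 278, 103 and 76 reads lay at 231, 224 and 218 kb from it. Another, of 447 reads over 12400 bp (chr9:90689363-90701762), lay 662 kb from Zic1 and nearer to Tbc1d2b, at 425 kb. Sox4, a SoxC factor of neuronal precursors, was the nearest gene of 7, 6 of them downstream at 138 to 296 kb with 44 to 115 reads, inside the lncRNA gene 2610307P16Rik. The other was upstream, 62.4 kb from Sox4. Sox9, a factor of glial and stem cells, shared a 457 kb gap of 6 islands with Slc39a11.

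**Figure D2:**
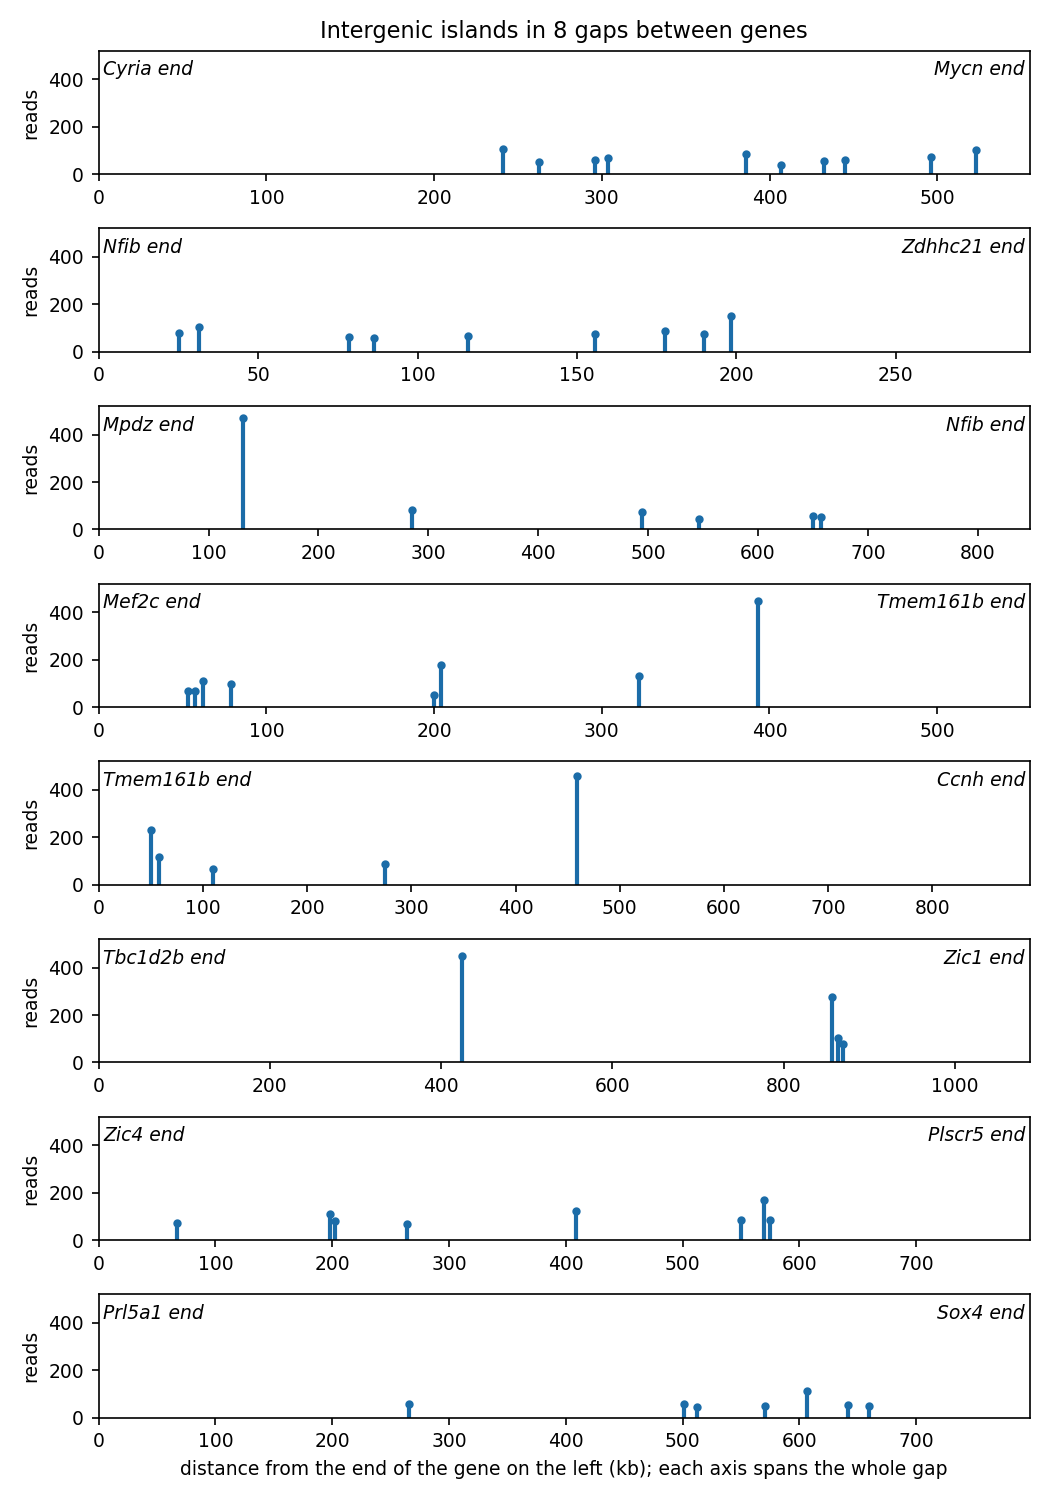
Reads in each intergenic island (y axis, dots on bars) by distance in kb from the end of the gene named on the left (x axis), in 8 gaps between neighbouring coding genes. Each axis spans its whole gap. The tallest bars are islands of 469, 447, 458 and 447 reads. They stand in the gaps Mpdz-Nfib, Mef2c-Tmem161b, Tmem161b-Ccnh and Tbc1d2b-Zic1.

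Wnt7b, which encodes a Wnt ligand, stood beside the longest run. In the 153 kb between it and Ppara, a nuclear receptor gene, 10 islands lay within 93.6 kb with no step over 20 kb. From the Wnt7b side they had 102, 68, 84, 52, 71, 162, 92, 88, 201 and 141 reads, so the highest lay nearer to Ppara. The next longest run, 6 islands within 40.2 kb with 46 to 156 reads, lay between Ercc6l2 and Hsd17b3. Ptch1, whose product binds Hedgehog ligands and restrains Smoothened, is a near neighbour: 9 intergenic islands lay within 500 kb of it, the closest at 146 kb with 57 reads, and none had Ptch1 as its nearest gene. In all, 990 intergenic islands stood alone at this step, there were 103 pairs of islands, and 73 islands belonged to 19 runs of 3 or more.

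Compared with islands elsewhere, intergenic islands had another island near them about as often as the whole list. Another island of any class lay within 20 kb of 364 (28.7%, Wilson 95% interval 26.3 to 31.2), against 18.9% of 1415 islands at coding gene ends (16.9 to 21.0), 34.2% of 2540 inside genes and 45.2% of 363 outside but within 10 kb of a gene. Over the whole list it lay so for 1716 islands. Their median of 66 reads (interval of the median 64 to 67) was close to the 67 at gene ends (66 to 68) and below the 71 inside genes (70 to 72). Median widths were 2200, 2200 and 2400 bp. Read density, in reads per 200 bp, had a median of 6.50 (6.42 to 6.57) against 6.20 at gene ends and 6.16 inside genes. It falls with width, and in 4 of 5 width classes the intergenic median was the highest of these 3 kinds. Up to 1400 bp the medians were 8.29 in intergenic islands, 7.69 at gene ends and 7.86 inside genes, and over 3400 bp they were 5.82, 5.58 and 5.62. The exception was the class over 2000 and up to 2600 bp, at 5.91, 5.91 and 6 reads per 200 bp. Islands outside but within 10 kb of a gene had a median density of 6.50, and the 140 at lncRNA ends 6.45. The lncRNA-end median was above the intergenic one in every width class but the narrowest. The higher density was thus not particular to intergenic islands. With 1 library no test between these classes over samples was possible.

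The islands with the most reads were of 2 kinds. In 6 intergenic islands the density was over 3 times the median of the list. These held 4300 and 1411 reads at the start of chromosome 9, where the nearest gene is Alkbh8, 1754 and 1344 reads in the desert beside Lrrc4c, 1000 reads near Ly6c2 and 651 near Scaf8. Their densities were 35.5, 37.1, 110, 192, 76.9 and 22.4 reads per 200 bp in that order. Mapping and input reads in these stretches were not examined, so whether their counts reflect Brg1 was not tested. Among the 10 with the most reads at lower density, 5 were still dense, with 665 and 491 reads near Gm15319 (13.04 and 11.98 per 200 bp), 568 near Tcte2 (12.6), 558 near Btbd35f6 on chromosome X (9.96) and 419 near Alkbh8 (16.8). The 4 wide islands described above, whose nearest genes were Mpdz, Tmem161b, Ccnh and Tbc1d2b, had 5.94 to 7.21 reads per 200 bp, like the rest. The last of the 10, near Olfr161, had 370 reads at 8.81. Without the 6 densest islands the median stayed at 66 reads and the rate beyond 500 kb was 0.201 per Mb.

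**Figure D3:**
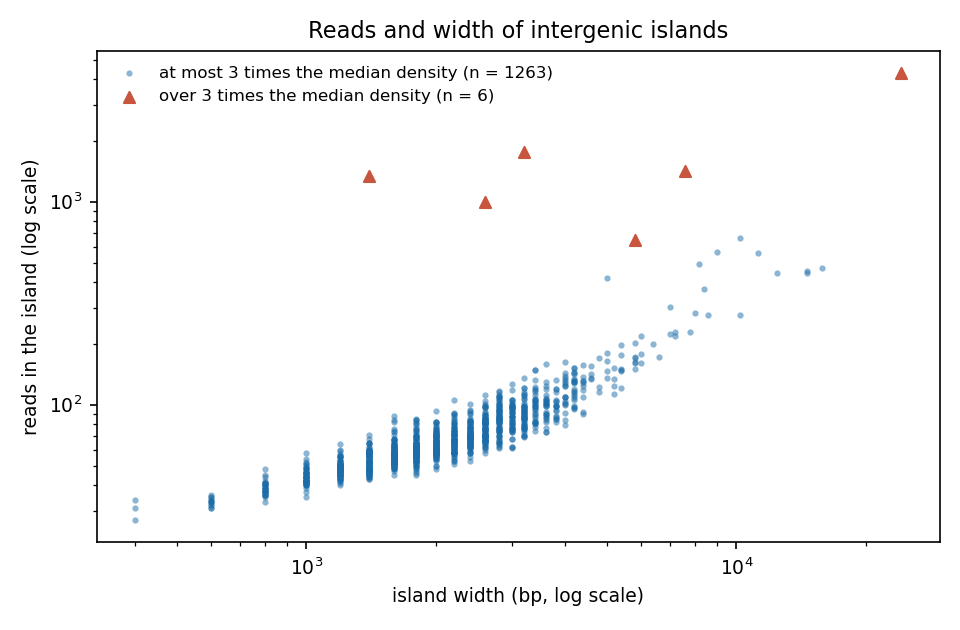
Reads (y axis, log scale) against width in bp (x axis, log scale) of each of the 1269 intergenic islands, with the 6 whose density exceeds 3 times the median of the list as red triangles. The triangles stand above the band that the other 1263 follow.

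Genes on the neural development lists used here were often the nearest gene of an intergenic island. All gene lists were chosen with earlier results of these data known, so their shares and ratios are description only. Of 21631 coding genes, 893 (4.13%) were the nearest of at least 1. The share was 7.06% among the 12614 genes with eligible sequence nearest to them, and 1471 genes (6.8%) flanked a gap with an island. Among zinc-finger and homeobox regulators of neural development the count was 17 of 31 (54.8%, Wilson 95% interval 37.8 to 70.8). Among them Zeb1 was nearest to 2 islands, of 69 and 117 reads, and Tshz2 to 1 of 94. Lhx1, a LIM homeobox gene, had 4, of 92, 91, 71 and 53 reads at 36.6, 44.6, 103 and 116 kb upstream. The zinc-finger genes Tshz3 and Zfp536 had 2 and 1, the closest at 120 and 76.6 kb with 91 and 62 reads. Nr2f1, a nuclear receptor gene, had 3, the closest at 377 kb with 58 reads. Granule neuron progenitor and patterning factors had 8 of 30 (26.7%, 14.2 to 44.4): Zic1, Zic4, Mycn, Meis1, Pax5, En1, Otx2 and Lmx1a. The homeobox gene Meis1 had 2, of 106 and 76 reads, at 129 and 299 kb. Other genes of this lineage had none as their nearest. For Atoh1, the bHLH factor that specifies granule neuron progenitors, the closest intergenic island was 1493 kb away. Those of the zinc-finger genes Zic2 and Zic5 lay 721 and 736 kb away, and those of the homeobox genes Meis2 and Barhl1 908 and 402 kb away. For Pax6, a paired homeobox gene, the closest lay at 153 kb (79 reads), and for Neurod1, a bHLH gene of differentiating neurons, at 404 kb (56 reads). Granule neuron differentiation genes had 8 of 29, with Mef2c, the adhesion gene Cadm1 (4 islands, up to 104 reads), Mef2d (97 reads) and the semaphorin gene Sema6a (2 islands, up to 70 reads) at the head. Nuclear factor I, E protein and Id genes had 3 of 11, namely Nfib, Tcf4 (2 islands, of 69 and 222 reads) and Tcf12. Nfia had none, and its closest lay 204 kb away (100 reads). Sox, POU and Fox genes had 7 of 26, and the island of Sox2, a stem cell factor, had 161 reads over 6000 bp at 206 kb upstream. Sox11 and Pou3f2 had none, with the closest at 636 and 375 kb.

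Hedgehog pathway genes were the nearest gene in 5 of 30 (16.7%, Wilson 95% interval 7.34 to 33.6), Mycn, Sfrp1, Dyrk2, Gas1 and Hhat. No intergenic island had Ptch1, Gli1, Gli3, Smo, Hhip or Ccnd1 as its nearest gene, and the closest to them lay 146, 367, 2565, 708, 3619 and 163 kb away. Wnt, TGF-beta and BMP genes had 6 of 30, led by Wnt7b with up to 162 reads and the secreted Wnt modulator Sfrp1 with up to 131. Cell cycle genes had 3 of 37 (8.11%), the proliferation marker gene Mki67 (3 islands, up to 113 reads), Myc (104 reads at 115 kb) and Mycn. BAF subunits and chromatin regulators had 3 of 39 (7.69%), among them the remodeller Chd7 with 151 reads at 60.5 kb and Kmt2e with up to 102. Housekeeping genes had 2 of 39 (5.13%), Psma1 and Ywhaz, and liver and muscle genes 1 of 36 (2.78%), Hnf4a. Of markers of other cells in a tumour, 2 of 20 oligodendrocyte and astrocyte genes had one, Olig1 (62 reads) and Olig2 (88 reads at 33.4 kb upstream). So did 2 of 22 microglia, endothelial and mural genes, Ptprc (4 islands, up to 150 reads) and Cdh5 (72 reads).

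Being the nearest gene depends on how much intergenic sequence a gene has around it, so counts were also set against the autosomal rate over the same distances. By this measure the granule neuron progenitor list had 22 islands where that rate gives 5.60 (ratio 3.93, Poisson 95% interval 2.46 to 5.95), and 14 against 5.14 (2.73) without Mycn. Of those 14, the neighbouring genes Zic1 and Zic4 held 3 and 4, so this ratio too rested largely on few loci. Zinc-finger and homeobox regulators had 30 against 13.3 (2.26, 1.53 to 3.23), and 2.08 without Zeb2, their member with the most islands. Differentiation genes had 17 against 8.17 (2.08, 1.21 to 3.33), and 1.497 without Mef2c. Several other ratios rested on 1 gene. Without Mycn the Hedgehog list went from 3.13 to 1.35 and the cell cycle list from 3.397 to 1.30. Without Nfib its list went from 4.09 to 1.27, without Sox4 the Sox, POU and Fox list from 1.65 to 0.934, and without Wnt7b the Wnt, TGF-beta and BMP list from 2.07 to 1.05. Housekeeping genes had 2 islands against 0.589 (3.39, 0.411 to 12.3), too few to place. Microglia, endothelial and mural markers had 5 against 2.02 (2.48, 0.804 to 5.78), and 0.669 without Ptprc. BAF and chromatin genes had 4 against 2.32 (1.72, 0.469 to 4.41). Oligodendrocyte and astrocyte markers had 2 against 1.31 (1.52, 0.185 to 5.50), and liver and muscle genes 1 against 1.48 (0.675, 0.0171 to 3.76). Ratios above 1 were thus not confined to neural lists. Mycn stands on 3 of these lists.

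By this ratio, adhesion, guidance and synaptic genes went the other way. They have much intergenic sequence, with 53.8 Mb nearest to the 41 genes, and had 10 islands where the autosomal rate gives 30.2 (ratio 0.331, Poisson 95% interval 0.159 to 0.608). By share of genes the list was not low. Of the 41, 5 (12.2%, Wilson 95% interval 5.32 to 25.5) were the nearest gene of an island, against 4.13% of all coding genes. The share was 12.8% among the 39 with eligible sequence nearest to them, against 7.06% of all such genes. The cadherin genes Cdh8 and Cdh20 had 4 and 3 islands, with up to 84 and 97 reads, and Pcdh10, Cdh18 and Ntm had 1 each. No test was run on any list.

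**Figure D4:**
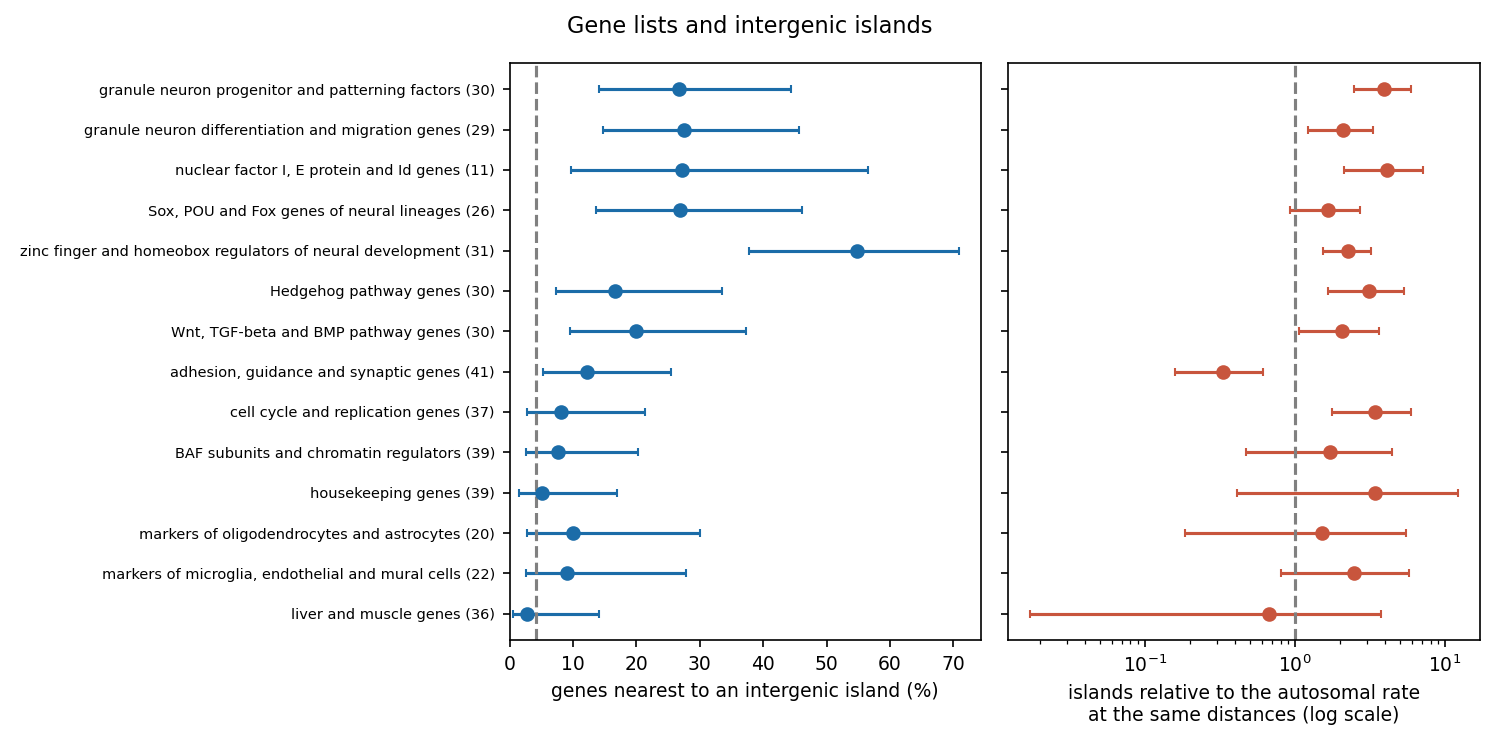
Left, the percentage of each list's genes (number in brackets) that are the nearest gene of an intergenic island, with Wilson 95% intervals and the 4.13% of all coding genes as a dashed line. Right, the islands nearest to each list relative to the autosomal rate at the same distances (log scale), with Poisson 95% intervals and a dashed line at 1; the adhesion list lies at 0.331 and the granule neuron progenitor list at 3.93.

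Intergenic islands lay downstream of their nearest gene slightly more often than upstream. The strand was known for 79.9% of coding genes, and of 945 islands in gaps whose nearest gene had one, 454 (48.0%, Wilson 95% interval 44.9 to 51.2) lay upstream, while upstream sequence made up 53.3% of the eligible sequence. This gave 0.859 islands per Mb upstream (Poisson 95% interval 0.781 to 0.941) and 1.06 downstream (0.970 to 1.16). Upstream and downstream rates were 1.47 and 1.49 at 10 to 20 kb, 1.21 and 1.78 at 20 to 50 kb, and 1.134 and 1.40 at 50 to 100 kb. They were 0.886 and 1.14 at 100 to 200 kb and 0.511 and 0.736 at 200 to 500 kb. The downstream rate was thus the higher in each of the 5 classes up to 500 kb, with intervals that did not overlap at 20 to 50 kb alone. Beyond 500 kb the upstream rate was the higher, at 0.262 (25 islands, 0.170 to 0.387) against 0.112 (9 islands, 0.0511 to 0.212), with overlapping intervals. Inside lncRNA genes, over 1 kb from their ends, there were 292 islands at 2.13 per Mb (1.89 to 2.39), against 0.838 per Mb (0.786 to 0.893) in other eligible sequence. The lncRNA genes holding the most were 2610307P16Rik near Sox4, with 6, and Gm36134 and 2610035D17Rik with 4 each.

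Chromosome 13 had the most intergenic islands and chromosome X the fewest. Chromosome 13 held 109, or 39.4% of its 277 islands, at 1.72 per Mb of eligible sequence (Poisson 95% interval 1.41 to 2.07). The next autosomes were 9 at 1.53 (1.20 to 1.91) and 11 at 1.46 per Mb (1.14 to 1.84), and their intervals overlapped that of chromosome 13. The lowest autosome was 3, at 0.702 per Mb (0.541 to 0.897). Of 25 gaps with 5 or more islands, 7 were on chromosome 13, among them those of Map3k1, Mef2c and Sox4, and they held 48 of its islands. Chromosome X held 8, at 0.0727 per Mb (0.0314 to 0.143), or 34.8% of its 23 islands.

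**Figure D5:**
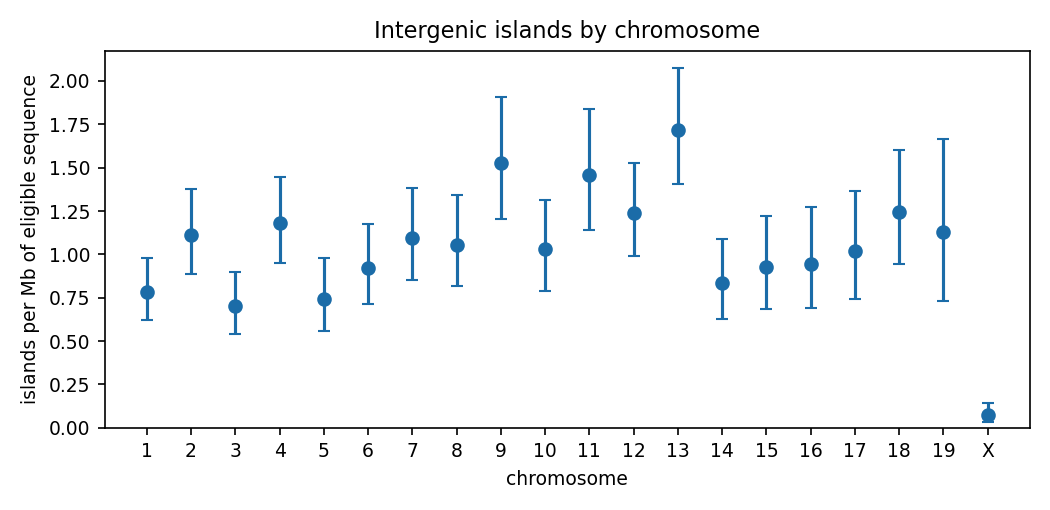
Intergenic islands per Mb of eligible sequence (y axis) for each chromosome (x axis), with exact Poisson 95% intervals. Chromosome 13 stands at 1.72 and chromosome X at 0.0727.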

How the data were processed

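One list of Brg1-enriched islands was analysed. It was made by the authors from 1 ChIP library, and the deposited number per island is taken, from its values, as a count of reads, not scaled for depth or width. Per the submitters' processing notes the tools were Bowtie 0.12.7, Picard 1.127 and SICER 1.1, with builds mm9 and mm10; which step used which, the thresholds and any use of the input were not given in the sources used here. Total depth is unknown.

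Coordinates were made 1-based and set against RefSeq genes of GRCm38.p6 (Python 3.11.15, pandas 2.3.3, scipy 1.17.1). Eligible sequence was measured in steps of 100 bp. High density meant over 3 times the median reads per 200 bp. Gene strand came from the promoter table. No test was run: shares carry Wilson, reads exact Poisson and medians exact binomial 95% intervals. The expected islands of a gene list are its eligible sequence, by distance class, times the autosomal rate. Distances were tested on simulated data. The members, gene lists and tests were chosen with earlier results of these data known. The rule for names took the 10 islands with most reads at ordinary density, the 5 with most reads above it, the 5 genes and 5 gaps with most islands, the 5 farthest islands, up to 4 genes per list by reads, 27 fixed genes and the islands beside the limit. Scaf8, other genes of a list and the further gaps, runs, deserts, promoters and microRNAs described were chosen after their values were seen.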

Additional observations from a re-analysis of the deposited data

How the results depend on the processing

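Of 84 alternative values, 59 stayed within the interval of the reported value or within 1.5 times a reported count. Over 5 kb from coding genes, the median distance was 52.6 kb, the share over 100 kb away 33.4% and the share in deserts 34.3%. Over 20 kb, these were 80.3 kb, 43.9% and 42.5%, and 25.2% had another island within 20 kb. Over 10 kb from every annotated gene, 695 islands remained by count, 5 on chromosome X and nearest to 544 genes, with 40.1% in deserts, a density of 6.58 reads per 200 bp and 24.9% with another island within 20 kb. With only islands that reached the list's median of 68 reads, 593 were intergenic, 3 on chromosome X and nearest to 457 genes, with medians of 85 reads, 2800 bp and 6.15 reads per 200 bp, and 23.6% with another within 20 kb. These follow from the stricter choice of islands. With deserts from 250 kb or from 1000 kb the share in deserts was 55.7% or 15.1%, and with 10 kb or 50 kb as near the share with a neighbour was 16.9% or 47.4%. Both flanking genes in place of the nearest gave 1471 genes. The island edge in place of the midpoint, no lncRNA condition and removal of the densest islands moved no value; nor did autosomes alone, an alternative chosen after seeing the data. The unknown depth limits any reading of sequence without an island. No paired analysis was possible because there is 1 library of each kind.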

Other observations

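Other noncoding genes lay under some intergenic islands. Of 207 tRNA genes over 10 kb from a coding gene, 23 (11.1%) were overlapped by an intergenic island, and 9 islands overlapped a tRNA gene. The same was so of 13 of 5850 pseudogenes (0.222%) and of 215 of 5712 lncRNA genes (3.76%). The microRNA genes Mir344 and Mir344i lay inside islands of 55 and 67 reads, 470 and 264 kb from Ndn, their nearest coding gene. Mir675, the microRNA of the imprinted H19 locus, lay 2.95 kb from an island of 62 reads.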
